A study of Mus musculus with 16 samples.

Results

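The 9 amino acid catabolic enzymes described here are Got1, Gpt, Tat, Hpd, Tdo2, Hal, Aass, Gldc and Prodh, a list made by gene name. Each was read from a probe set annotated with exactly 1 gene symbol, the brightest on average where a gene had several. All 9 were measured, out of 18820 genes on the array, and each had 1 such probe set. The RNA came from livers of male mice aged 14 to 16 weeks on the C57Bl/6J background, housed 1 to a cage on laboratory chow. There were 4 groups of 4 arrays, namely vanin-1 knockout (KO) mice without food for 24 h, wild type (WT) mice without food for 24 h, fed KO mice and fed WT mice. The fed mice are recorded with 24 h of feeding. The sources used here do not say how the null allele was made. Vanin-1, encoded by Vnn1, is an enzyme that releases pantothenate and cysteamine from pantetheine.

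The liver is the main site of breakdown for most amino acids other than the branched-chain ones. Aminotransferases move the amino group onto a keto acid, after which the nitrogen goes to urea and the carbon skeletons enter the citric acid cycle, ketone bodies or glucose. During a fast, glucagon and glucocorticoids rise, and several of these enzymes, Tat among them, are classical targets of these hormones in rodent liver.

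All values are log2 RMA intensities, a microarray brightness scale on which 1 unit is a doubling, and differences are on the same log2 scale. Vnn1, the targeted gene, lay at 3.67 to 4.26 on the fasted KO arrays, against 9.93 to 11.47 on the fasted WT arrays. On fed arrays it lay at 3.80 to 4.06 in KO mice, against 6.71 to 10.34 in WT mice, so every array matched its genotype label. Hepatocyte markers (8 genes) had a summed level between 16.04 and 16.25 on all 16 arrays. Pancreatic acinar markers had a summed level of 12.07 on fasted WT 4, against 7.40 to 7.67 on the other 15 arrays, where most of the 10 markers lay under the array medians. Acute phase genes (11 measured) had a summed level of 16.16 on fed KO 4, 15.33 on fed KO 1 and 15.23 on fed WT 2, against 14.74 to 14.97 on the others. Kupffer cell markers (10 genes) had summed levels of 11.84 to 12.51 in fasted KO and 12.01 to 12.50 in fasted WT liver, against 12.29 to 12.54 in fed KO and 12.39 to 12.92 in fed WT liver, and 1 of the 10 (Folr2) fell on fasting in KO and 2 (Adgre1 and Folr2) in WT liver. Stellate cell and fibroblast markers had 3 of 8 lower in KO (Lrat, Col1a2 and Col3a1) and 2 of 8 in WT liver (Lrat and Col3a1). Pericentral hepatocyte markers had 3 of 11 lower in both (Cyp1a2, Lect2 and Gulo). Of these 11, however, 6 had a difference above 0 in WT liver (median 0.05) and 3 in KO liver (median -0.26). Periportal hepatocyte markers (7 measured, Hal among them) had 2 called higher in WT liver, and 1 higher and 1 lower in KO liver. Most of these 7 pointed lower, however, with 4 below 0 in WT liver (median -0.15) and 5 in KO liver (median -0.09). Calls in these marker lists are by limma at an adjusted p below 0.05. By that test 4.53% of all genes were higher and 4.89% lower on fasting in KO liver. In WT liver the shares were 3.34% and 4.27%. Single markers are named after their values were seen, and the part of any of these lists in the results was not tested. Fasted WT 4 and fed KO 4 were left out together as an alternative.

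Fasting raised 4 of the 9 enzymes in WT liver and lowered none of them by limma (adjusted p below 0.05, Benjamini-Hochberg over 18820 genes). They were Got1, Aass, Gldc and Tat, by 1.92-fold, 1.57-fold, 1.52-fold and 1.39-fold. Over all genes 7.61% passed that test in WT liver, 3.34% as higher and 4.27% as lower, so the 4 higher members of 9 stand against a background of 3.34%. The members were chosen with earlier results of these data known, so the 2 shares set side by side are a description and not a test. The WT count went to 0 of 9 without fasted WT 3 or without fasted WT 4, and to 1 of 9 with only the WT arrays in the fit. In KO liver the same comparison called 1 member, Prodh, which was 2.11-fold lower, and no member as higher. There 9.42% of all genes passed, 4.53% as higher and 4.89% as lower. The median log2 difference of the 9 was 0.12 in KO liver, where that of all genes was 0.02, and 0.25 in WT liver, where that of all genes was 0.01. Whether the responses differed between the genotypes was tested directly, and no member passed that test. The split of all called genes in WT liver, 629 higher and 803 lower, turned to 1014 higher and 542 lower when each array was centred on its median, a scaling under which the same number of members, 4 higher and 0 lower, was called. These are bulk liver samples, in which fewer cells of a type and less RNA per cell cannot be told apart.

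**Figure D1:**
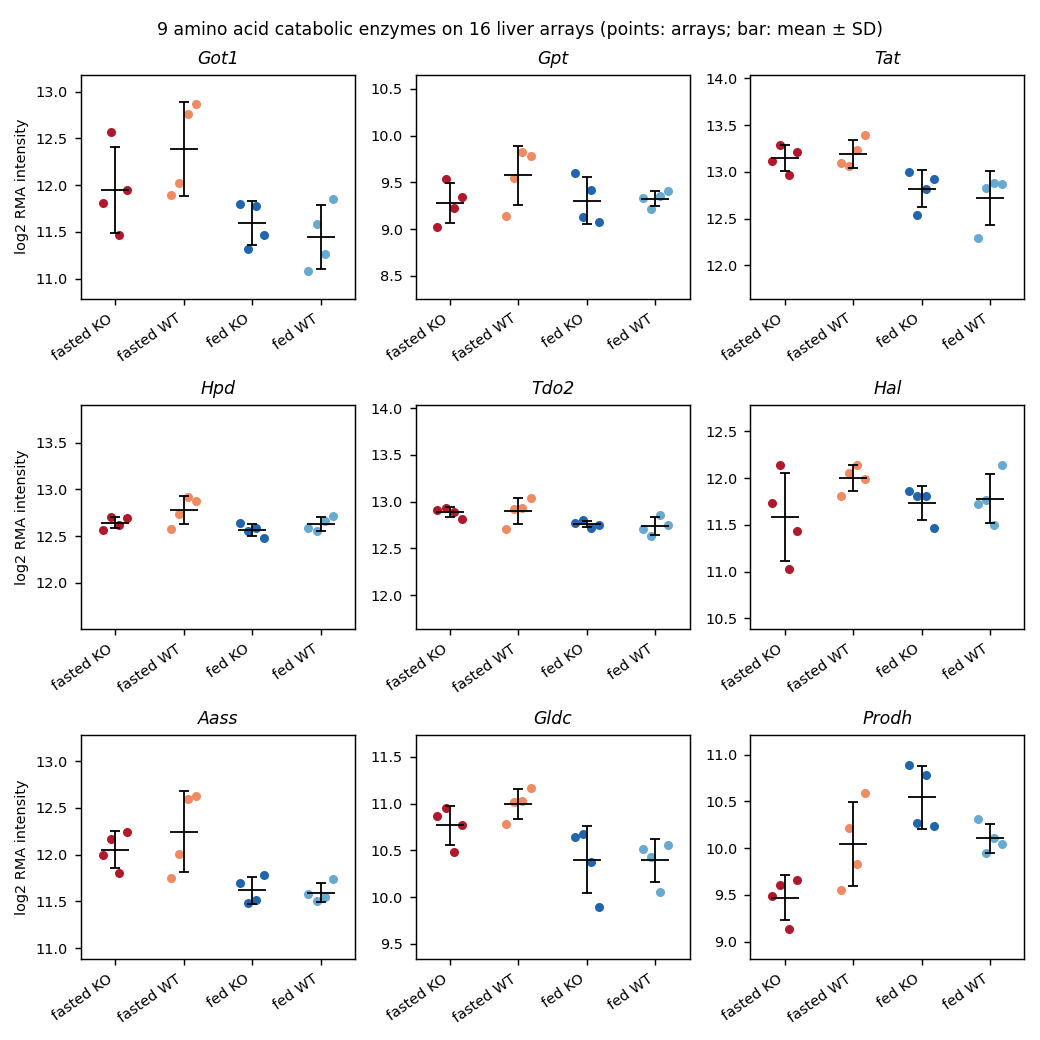
Log2 RMA intensity (vertical axis) of the 9 enzymes in fasted KO, fasted WT, fed KO and fed WT liver. Each point is 1 array, and the bars are the mean ± SD of 4 arrays. Got1, Aass, Gldc and Tat have all 4 fasted WT points above all 4 fed WT points, and Prodh has all 4 fasted KO points below all 4 fed KO points.

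The stretches around the transcription starts of the 5 enzymes that passed a fasting test are shown because 4 of them rose in the same liver and 1 fell in the other. Each runs 5′ to 3′ on the gene's strand from 250 bases before the start through the first 50 bases of the transcript, taken from RefSeq on GRCm38.p6. Capitals mark a match to any of 7 short motifs that were searched on both strands. Got1 lies on the minus strand at chr19:43524556-43524855, Aass on the minus strand at chr6:23132937-23133236 and Gldc on the minus strand at chr19:30175392-30175691. Tat lies on the plus strand at chr8:109990186-109990485 and Prodh on the minus strand at chr16:18089141-18089440.
Got1: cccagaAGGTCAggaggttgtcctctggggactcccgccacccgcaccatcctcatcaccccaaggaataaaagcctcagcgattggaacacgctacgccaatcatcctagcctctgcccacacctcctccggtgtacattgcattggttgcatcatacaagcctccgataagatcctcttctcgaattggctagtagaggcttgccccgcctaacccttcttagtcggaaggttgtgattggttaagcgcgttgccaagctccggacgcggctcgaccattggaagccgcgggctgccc
Aass: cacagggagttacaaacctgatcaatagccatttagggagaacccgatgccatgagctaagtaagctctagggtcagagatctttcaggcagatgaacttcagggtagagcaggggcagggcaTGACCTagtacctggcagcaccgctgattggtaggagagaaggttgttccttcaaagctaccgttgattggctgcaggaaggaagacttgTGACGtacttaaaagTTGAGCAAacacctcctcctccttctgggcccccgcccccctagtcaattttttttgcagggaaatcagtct
Gldc: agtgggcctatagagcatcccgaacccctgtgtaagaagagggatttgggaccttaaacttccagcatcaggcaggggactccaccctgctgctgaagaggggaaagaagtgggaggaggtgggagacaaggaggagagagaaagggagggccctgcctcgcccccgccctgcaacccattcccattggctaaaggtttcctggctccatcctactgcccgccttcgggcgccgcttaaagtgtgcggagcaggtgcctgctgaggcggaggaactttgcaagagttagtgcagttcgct
Tat: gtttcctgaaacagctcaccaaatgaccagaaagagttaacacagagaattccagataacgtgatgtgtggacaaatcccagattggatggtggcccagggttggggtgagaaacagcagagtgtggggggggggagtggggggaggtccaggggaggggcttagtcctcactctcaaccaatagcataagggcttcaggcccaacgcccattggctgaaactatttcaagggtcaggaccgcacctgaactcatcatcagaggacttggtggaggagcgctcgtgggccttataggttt
Prodh: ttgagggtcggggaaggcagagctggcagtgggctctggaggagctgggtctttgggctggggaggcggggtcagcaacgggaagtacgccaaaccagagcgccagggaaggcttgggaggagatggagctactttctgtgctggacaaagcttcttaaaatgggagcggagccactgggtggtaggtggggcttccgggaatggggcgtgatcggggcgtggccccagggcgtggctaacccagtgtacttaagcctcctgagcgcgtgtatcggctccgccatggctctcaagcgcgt
For hormone signals the search used AGAACA, the hexamer of the glucocorticoid response element. The cAMP response element was searched in full as TGACGTCA. Its shorter core was searched as TGACG, which the full element contains. Forkhead factors were represented by the letters TGTTTAC, and C/EBP factors by the letters TTGCNNAA. The hexamer of nuclear receptors was searched as AGGTCA. The last motif searched, for the TATA box, was TATAAA. Aass carried AGGTCA on the minus strand, TGACG on the plus strand and TTGCNNAA on the minus strand, with first bases at -127, -37 and -22 counted from the start. Got1 carried AGGTCA on the plus strand at -244. The windows of Gldc, Tat and Prodh held none of the 7, which says only that these letters are absent from 300 bases. RefSeq windows were at hand for 8 members, all but Gpt. The nuclear receptor hexamer was found in 3 of the 8 and in 16.3% of 32851 windows of the same length over the genome. The C/EBP motif was in 2 and in 10.8%, the TATA box in 2 and in 13.6%, and the cAMP core in 1 and in 20.8%. Neither the glucocorticoid hexamer nor the full cAMP element nor the forkhead motif was in any of the 8, against 19.0%, 1.79% and 3.65% of all windows. The G and C content ran from 47.7% in Hal and Tdo2 to 63.0% in Prodh, and the median of all windows was 52.7%.

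The aminotransferases are taken first. Got1 encodes the cytosolic aspartate aminotransferase, which links aspartate to glutamate and takes part in the malate-aspartate shuttle. It lay at 11.89, 12.02, 12.76 and 12.87 on the fasted WT arrays, against 11.08, 11.58, 11.26 and 11.85 on the fed WT arrays. The 2 sets did not overlap, though the lowest fasted and the highest fed array were close, and the fasted arrays fell into a lower and a higher pair. Got1 was 0.94 higher in fasted WT liver (SE 0.25, 95% interval 0.42 to 1.46, limma adjusted p = 0.0258). Of all genes, 12.4% had WT arrays that did not overlap between fasted and fed mice, against 4 of the 9 members (Got1, Aass, Gldc and Tat, each higher when fasted). In KO liver Got1 lay at 11.81, 12.57, 11.47 and 11.95 on the fasted arrays, against 11.80, 11.32, 11.78 and 11.47 on the fed arrays. These sets overlapped, and the difference of 0.36 did not pass (95% interval -0.16 to 0.88, limma adjusted p = 0.435). The WT call ended without fasted WT 3 (adjusted p = 0.0822), fasted WT 4 (0.0931), fed WT 1 (0.0794) or fed WT 3 (0.0669), with differences of 0.78 to 1.11 over all single arrays left out. Without both fasted WT 4 and fed KO 4 the difference was 0.78 (limma adjusted p = 0.102). The call also ended with only the WT arrays in the fit (0.059) and on removal of the 3 arrays whose name ends in 2 (0.0603).

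Gpt encodes the cytosolic alanine aminotransferase, which turns alanine arriving from muscle into pyruvate. It lay at 9.14, 9.55, 9.82 and 9.78 on the fasted WT arrays, against 9.33, 9.21, 9.35 and 9.41 on the fed WT arrays, with fasted WT 1 below every fed array. The difference was 0.25 (95% interval -0.07 to 0.56, limma adjusted p = 0.373). On fasted KO arrays Gpt lay at 9.02, 9.53, 9.23 and 9.34, against 9.60, 9.13, 9.42 and 9.07 on fed KO arrays, which overlapped throughout (difference -0.02, 95% interval -0.34 to 0.29, limma adjusted p = 0.951).

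Of the paralogues of these enzymes, Gpt2 passed the fasting test in both genotypes and Got2 in neither. Gpt2, the mitochondrial alanine aminotransferase, lay at 11.57, 11.59, 11.86 and 12.04 on fasted WT arrays, against 11.07, 10.93, 11.00 and 10.68 on fed WT arrays. It rose 1.79-fold in WT liver (log2 difference 0.84, limma adjusted p = 0.000645), and this call survived the removal of any single array. On KO arrays Gpt2 lay at 11.68, 11.58, 11.50 and 11.80 when fasted, against 11.30, 10.99, 11.37 and 10.97 when fed. It rose 1.40-fold there (log2 difference 0.48, limma adjusted p = 0.021), a call that ended without fasted KO 1 (0.0586), fasted KO 4 (0.0724), fed KO 2 (0.064), fed KO 4 (0.0663) or the 3 arrays whose name ends in 2 (0.159). Fasted and fed arrays of Gpt2 did not overlap in either genotype. Got2, the mitochondrial aspartate aminotransferase, differed by 0.04 in KO liver and by 0.03 in WT liver (limma adjusted p = 0.762 and 0.872). Its 16 values, from the brightest of its 3 probe sets, ran from 12.49 to 12.69. Under the 30 alternative settings, the mean of those probe sets among them, its lowest limma adjusted p was 0.654 in KO and 0.436 in WT liver. Whether a gene and its paralogue differed in their response was not tested.

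**Figure D2:**
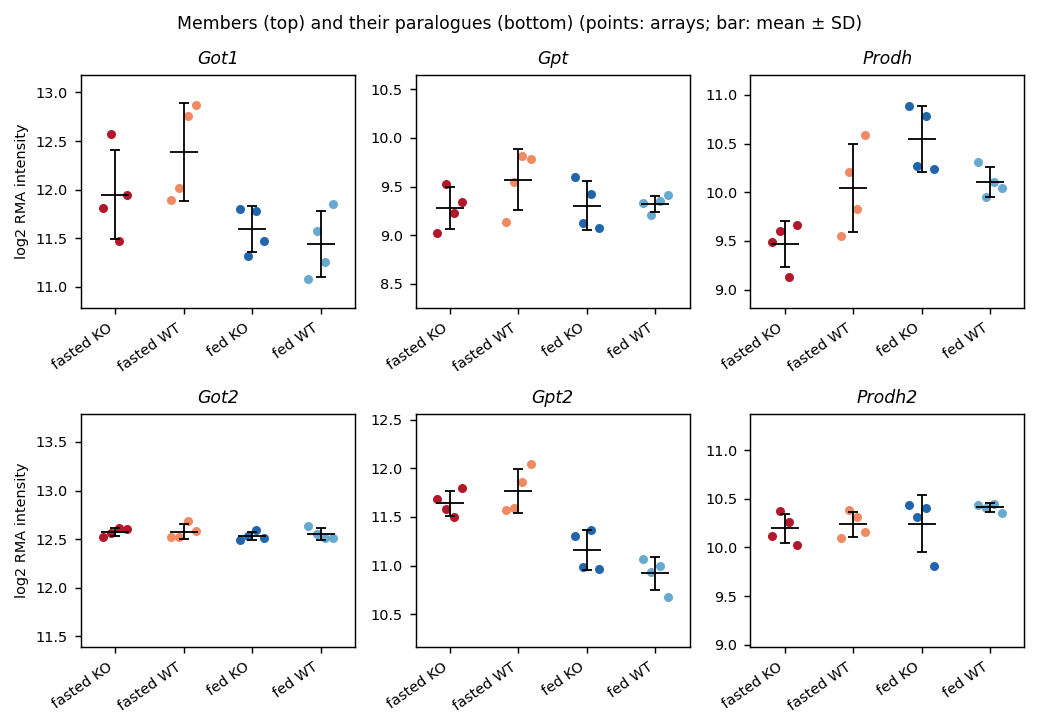
Log2 RMA intensity (vertical axis) of Got1, Gpt and Prodh (top) and of their paralogues Got2, Gpt2 and Prodh2 (bottom) in the 4 groups. Points are arrays and bars the mean ± SD of 4 arrays. Gpt2 is higher on all fasted than on all fed arrays of its genotype, whereas the 16 Got2 values stay between 12.49 and 12.69.

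Tyrosine breakdown was represented by Tat and Hpd. Tat encodes tyrosine aminotransferase, the first step of the pathway. Its level was 13.09, 13.06, 13.23 and 13.39 on the fasted WT arrays, against 12.29, 12.83, 12.88 and 12.87 on the fed WT arrays. All fasted arrays lay above all fed arrays, and fed WT 1 lay far below the other fed arrays. Tat was 0.47 higher (SE 0.13, 95% interval 0.19 to 0.75, limma adjusted p = 0.0378). In KO liver it lay at 13.11, 13.29, 12.97 and 13.21 when fasted, against 13.00, 12.54, 12.82 and 12.92 when fed, which overlapped by fasted KO 3 and fed KO 1. The KO difference of 0.32 did not pass (95% interval 0.04 to 0.60, limma adjusted p = 0.153). The WT call ended without fasted WT 3 (adjusted p = 0.0832), fasted WT 4 (0.123) or fed WT 1 (0.104, with a difference of 0.33), and without fasted WT 4 and fed KO 4 together (0.125). It also missed the threshold after quantile (0.0608) or cyclic loess normalisation (0.0764), with array weights (0.0553), with only the WT arrays in the fit (0.0972) and on removal of the 3 arrays whose name ends in 2 (0.066).

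Hpd encodes 4-hydroxyphenylpyruvate dioxygenase, the next step after Tat. It lay at 12.58, 12.74, 12.92 and 12.87 on the fasted WT arrays, against 12.59, 12.55, 12.66 and 12.72 on the fed WT arrays. The difference was 0.15 (95% interval -0.02 to 0.31, limma adjusted p = 0.298). In KO liver Hpd ran from 12.57 to 12.70 when fasted, against 12.48 to 12.64 when fed (difference 0.08, limma adjusted p = 0.629). The 4 groups overlapped, and the spread within groups was small, with a pooled SD of 0.10.

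Tdo2 encodes tryptophan 2,3-dioxygenase, which opens the indole ring as the first step of the kynurenine pathway. Its levels were 12.71, 12.92, 12.93 and 13.04 on fasted WT arrays, against 12.71, 12.63, 12.86 and 12.75 on fed WT arrays. In KO liver they were 12.91, 12.93, 12.89 and 12.81 on fasted arrays, against 12.77, 12.80, 12.72 and 12.75 on fed arrays. The KO arrays did not overlap and the WT arrays did, but neither difference passed, at 0.12 in KO liver (limma adjusted p = 0.366) and 0.16 in WT liver (limma adjusted p = 0.229). Of all genes, 17% had fasted and fed KO arrays that did not overlap, against 3 of the 9 members (Tdo2 and Aass higher, Prodh lower). Tdo2 had the smallest spread of the 9, with a pooled SD of 0.09 within groups.

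Hal encodes histidine ammonia-lyase, which removes ammonia from histidine to give urocanate. It lay at 11.81, 12.06, 12.14 and 11.99 on the fasted WT arrays, against 11.72, 11.77, 11.50 and 12.14 on the fed WT arrays. On KO arrays it lay at 11.73, 12.14, 11.03 and 11.44 when fasted, against 11.86, 11.81, 11.81 and 11.47 when fed. The fasted KO arrays spread more widely than any other group of Hal, from 11.03 to 12.14 (SD 0.47). Neither fasting difference passed, at -0.15 in KO liver (95% interval -0.54 to 0.24, limma adjusted p = 0.693) and 0.22 in WT liver (95% interval -0.17 to 0.61, limma adjusted p = 0.544).

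Aass encodes aminoadipic semialdehyde synthase, which starts lysine breakdown through saccharopine. It lay at 11.75, 12.01, 12.60 and 12.63 on the fasted WT arrays, against 11.58, 11.51, 11.55 and 11.74 on the fed WT arrays. The groups did not overlap, but fasted WT 1 lay barely above fed WT 4. Aass was 0.65 higher in fasted WT liver (SE 0.16, limma adjusted p = 0.0194). KO arrays gave 12.00, 12.17, 11.80 and 12.24 when fasted, against 11.70, 11.48, 11.52 and 11.78 when fed, again without overlap. The KO difference of 0.43 had a 95% interval of 0.09 to 0.77 and did not pass (limma adjusted p = 0.112), though it passed without fasted WT 1 (adjusted p = 0.0497), with array weights (0.0457) and with only the KO arrays in the fit (0.0322). Leaving out fasted WT 3 (0.0672) or fasted WT 4 (0.0721) ended the WT call, as did leaving out fasted WT 4 together with fed KO 4 (0.0713), fitting only the WT arrays (0.0795) or removing the 3 arrays whose name ends in 2 (0.0657).

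Gldc encodes the decarboxylase (P protein) of the mitochondrial glycine cleavage system. It lay at 10.78, 11.02, 11.03 and 11.17 on the fasted WT arrays, against 10.52, 10.43, 10.06 and 10.56 on the fed WT arrays. Every fasted array was above every fed array. Gldc was 0.61 higher (SE 0.16, 95% interval 0.27 to 0.94, limma adjusted p = 0.026). On KO arrays it lay at 10.87, 10.95, 10.48 and 10.77 when fasted, against 10.64, 10.68, 10.38 and 9.90 when fed. Fed KO 4 was the lowest of the 16 arrays, the sets overlapped, and the KO difference of 0.37 did not pass (95% interval 0.03 to 0.70, limma adjusted p = 0.178). Without fasted WT 2, 3 or 4 the WT call ended (adjusted p = 0.0593, 0.0605 and 0.0835), as it did without fed WT 3 (0.0816). Gldc kept its WT call without fasted WT 4 and fed KO 4 together, the 1 WT call of the 4 that did.

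Prodh encodes proline dehydrogenase, the mitochondrial flavoenzyme that begins proline oxidation, and it was the 1 member called lower. On fasted KO arrays Prodh lay at 9.49, 9.60, 9.13 and 9.66, against 10.89, 10.27, 10.78 and 10.24 on fed KO arrays. The lowest fed array stood well above the highest fasted array. Prodh was 1.07 lower on the log2 scale in fasted KO liver (difference -1.07, SE 0.20, 95% interval -1.49 to -0.66, limma adjusted p = 0.00206). This call held under all 30 alternative settings, with differences of -1.18 to -0.96 and adjusted p up to 0.0119. On fasted WT arrays Prodh lay at 9.55, 10.21, 9.83 and 10.59, against 10.31, 9.95, 10.11 and 10.04 on fed WT arrays. The fasted WT arrays lay both above and below the fed ones, and the difference was -0.06 (SE 0.20, 95% interval -0.48 to 0.36, limma adjusted p = 0.907). Mean levels of Prodh were 9.47 ± 0.24 in fasted KO, 10.04 ± 0.45 in fasted WT, 10.54 ± 0.34 in fed KO and 10.10 ± 0.16 in fed WT liver (SD, n = 4 each). The KO groups were thus the lowest and the highest, with both WT groups between them at levels closer than their spread. Prodh2, the paralogue that acts on hydroxyproline, differed by -0.05 in KO liver and -0.18 in WT liver, neither past the test (limma adjusted p = 0.864 and 0.445).

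**Figure D3:**
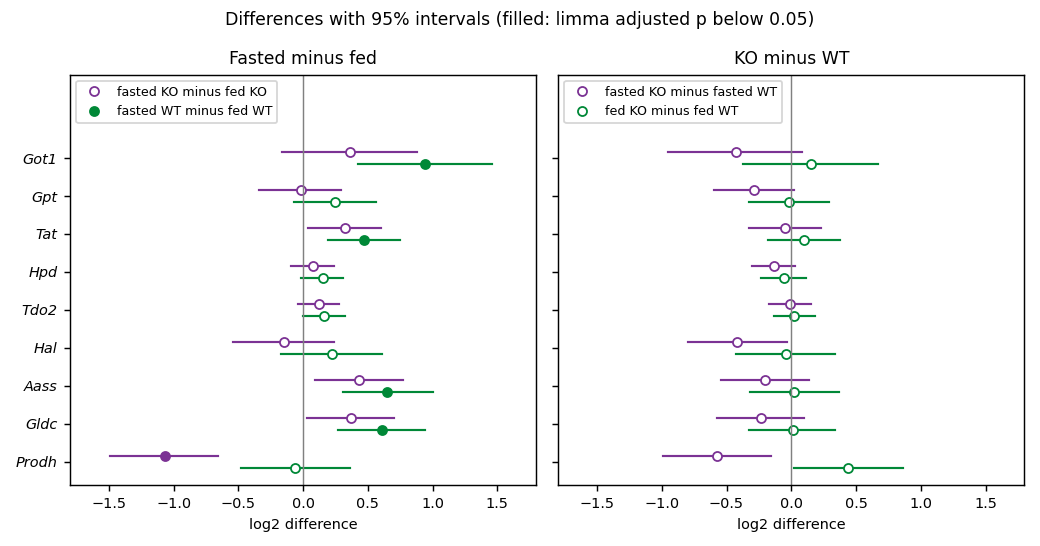
Log2 differences of the 9 enzymes with 95% intervals, fasted minus fed on the left (KO above WT in each row) and KO minus WT on the right (fasted above fed). Filled points passed limma at adjusted p below 0.05. Filled points are Got1, Tat, Aass and Gldc in WT fasting and Prodh in KO fasting, and no KO minus WT point is filled.

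The effect of vanin-1 loss was then read within each feeding state. In fasted liver all 9 enzymes had a lower mean in KO than in WT mice, with differences between -0.57 and -0.01 and a median of -0.23. Without fasted WT 4, the array with pancreatic markers, Tat and Tdo2 turned to 0.02 and 0.03, which left the other 7 lower. Of all 18820 genes 9324 pointed lower in this comparison, and of the 55 pathway genes besides the 9 members 45 did. None passed limma in fasted liver, where the smallest adjusted p of the 9 was 0.867 and 0.0159% of all genes (3 of them) passed. At an unadjusted p under 0.05 there were 2 members, Prodh and Hal, as there were 5.49% of all genes. Prodh differed by -0.57 (95% interval -0.99 to -0.16) and Hal by -0.42 (95% interval -0.80 to -0.03). Got1 differed by -0.43, at 11.95 ± 0.46 in fasted KO and 12.38 ± 0.50 in fasted WT liver (SD, n = 4 each, limma adjusted p = 0.900). The members are not independent readings of a shared direction, since 35 of their 36 pairs were positively correlated between arrays within groups. No member had fasted KO and fasted WT arrays that did not overlap, against 3.15% of all genes.

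In fed liver the KO minus WT differences of the other 8 members lay between -0.06 and 0.15, and the largest was that of Prodh. Prodh lay at 10.54 ± 0.34 in fed KO liver and 10.10 ± 0.16 in fed WT liver (difference 0.44, 95% interval 0.02 to 0.86, limma adjusted p = 0.855). Fed KO 1 and 3 lay at 10.89 and 10.78 on Prodh and the other fed KO arrays within the range of the fed WT arrays. No member passed in fed liver and 1 had an unadjusted p under 0.05, against 0.00531% and 5.76% of all genes. Again 0 members had arrays that did not overlap, against 3.12% of all genes. Averaged over both feeding states, 0 of the 9 passed for KO against WT (limma, smallest adjusted p = 0.824, 0 at an unadjusted p under 0.05), where 0.00531% of all genes passed, the 1 gene being Vnn1.

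The difference of the fasting responses, KO minus WT, uses the same 16 arrays as these comparisons. It was below 0 for each of the 9, with a median of -0.24, and 0 members passed limma (smallest adjusted p = 0.948, 1 with an unadjusted p under 0.05). No gene of the 18820 passed, which is 0% of them, and 4.91% had an unadjusted p under 0.05. Prodh had the largest difference of the 9, -1.02 (SE 0.28, 95% interval -1.61 to -0.42, unadjusted p = 0.00213, limma adjusted p = 0.948). For Got1 it was -0.59 (SE 0.35, 95% interval -1.32 to 0.15) and for Hal -0.37. Aass, Gldc and Tat, which passed in WT and not in KO liver, differed between the genotypes by -0.22, -0.24 and -0.15. A different fasting response in KO liver was therefore not shown for any of the 9.

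With both genotypes together, fasting raised 4 members and lowered 1. Over all genes 18.3% passed in this averaged comparison, 8.4% as higher and 9.88% as lower. Aass was 0.54 higher (limma adjusted p = 0.00289), Gldc 0.49 (0.00557), Tat 0.40 (0.00654) and Got1 0.65 (0.0144). Prodh had a difference of -0.57 (SE 0.14, limma adjusted p = 0.00865), an average over -1.07 in KO and -0.06 in WT liver. Tdo2 at 0.14 missed the threshold (limma adjusted p = 0.075) and passed without fasted WT 1 (0.0221) or fed WT 3 (0.049). Hpd (0.11), Gpt (0.11) and Hal (0.03) did not pass. The calls of Aass, Gldc, Tat and Prodh survived the removal of any single array, as did that of Got1, which was lost without fasted WT 4 and fed KO 4 together (0.0542).

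The arrays of a group differed from each other in most members at once. On fasted WT 1 all 9 enzymes lay below their group mean, by 0.31 on average, and on fasted WT 3 and 4 all but 1 lay above it, by 0.13 and 0.25. Among fasted KO arrays, number 2 lay above the group mean for all 9, by 0.23, and number 3 below it for 8, with a mean deviation of -0.24. Fed KO 1 lay above it for all 9 (0.17) and fed KO 4 below it for 7 (-0.14). Across the 16 arrays, after taking out group means, the 36 pairs of members had correlations from -0.06 (Tat with Gldc) to 0.92 (Gpt with Hpd) and a median of 0.47. These are descriptions over arrays that share processing. The pancreatic markers were high on fasted WT 4 alone, and the part of that tissue in the enzyme levels on this array was not tested. Without fasted WT 4 the WT differences were 0.78 for Got1, 0.53 for Aass, 0.55 for Gldc and 0.41 for Tat, and 0 of the 9 passed. Without fasted WT 3 also 0 of 9 passed. Got1 had a pooled SD of 0.40 within groups, larger than that of 97.6% of all genes, and Prodh 0.32 (95%), whereas Hpd and Tdo2 lay at 11.4% and 7.31%.

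**Figure D4:**
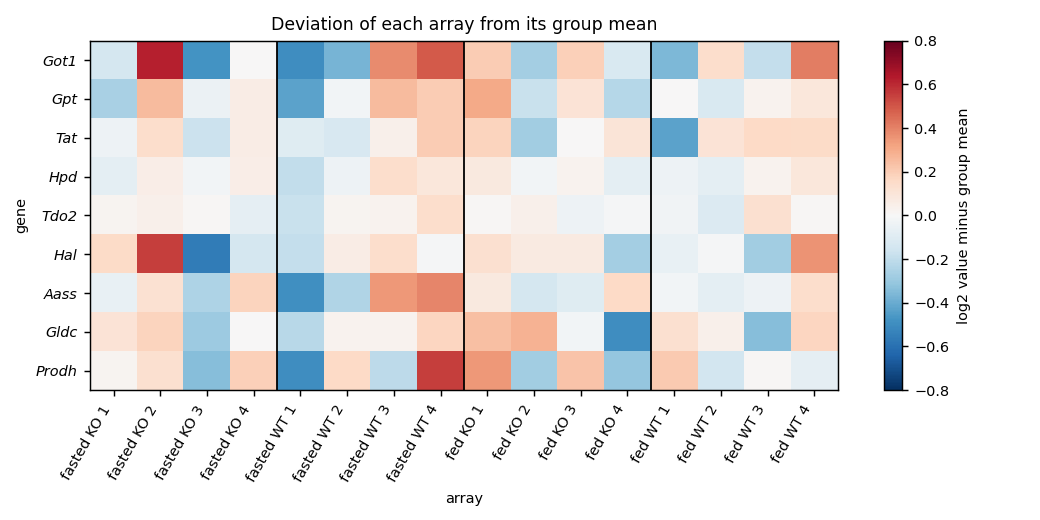
Deviation of each array from its group mean (colour, log2 scale, red above and blue below) for the 9 enzymes (rows) on the 16 arrays (columns, by group). Fasted WT 1 is blue for all 9 enzymes and fasted KO 2 and fed KO 1 are red for all 9.

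The genes whose levels followed each member most closely over the 16 arrays were looked up by Pearson correlation, given as a description without a test. Hal was closest to Amdhd1 (r = 0.916), which encodes a later enzyme of the same histidine pathway. Gpt and Hpd were each other's nearest gene (r = 0.893), followed for Gpt by the urea cycle gene Cps1 (0.868) and for Hpd by Glce (0.867) and Hgd (0.857), the next enzyme of tyrosine breakdown. Got1 was closest to the protease gene Ctsl (0.907), then to Slc25a15, the mitochondrial ornithine carrier, and the urea cycle gene Asl (0.898 each). Aass was closest to Ppa1 (0.949), Gm6642 (0.938) and Asl (0.926). Tat was closest to Pfkfb2 (0.932), the clock gene Per1 (0.902) and Apex2 (0.887). Gldc was closest to the clock gene Arntl (0.928), Inca1 (0.922) and the glycolytic gene Tpi1 (0.906). For Tdo2 the nearest genes were Fam71b (0.881), Fam131b (0.880) and Sesn2 (0.877). Prodh was nearest to Gramd1c (0.884), Akr1d1 (0.879), an enzyme of bile acid synthesis, and Masp1 (0.871). Group differences and the spread within groups both enter these correlations.

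The other genes of amino acid breakdown are given by pathway. The lists held 64 measured genes, 55 of them besides the 9. In KO liver 1 of the 55 was higher on fasting, 12 were lower and 42 did not pass, with a median log2 difference of -0.09. In WT liver 1 was higher, 8 were lower and 46 did not pass, with a median of -0.00. Over all genes the shares were 4.53% higher and 4.89% lower in KO, and 3.34% higher and 4.27% lower in WT liver. The 9 of the 55 that passed in WT liver also passed in KO liver in the same direction, which is 100% of the WT calls and 69.2% of the 13 KO calls. Over all genes 861 were called in both, 48.6% of the KO and 60.1% of the WT calls. Of the 9 members none was called in both genotypes.

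In the tryptophan list 3 of 9 genes fell in both genotypes and none rose. Ido2, which encodes an indoleamine dioxygenase, lay at 9.39 ± 0.16 in fasted KO and 10.37 ± 0.22 in fed KO liver, and at 9.42 ± 0.12 in fasted WT and 10.16 ± 0.10 in fed WT liver (SD, n = 4 each). It fell 1.97-fold in KO liver (limma adjusted p = 2.85e-05) and 1.67-fold in WT liver (0.000615). Haao, the dioxygenase that opens 3-hydroxyanthranilate, fell by 0.58 in KO and by 0.49 in WT liver on the log2 scale (limma adjusted p = 0.000183 and 0.00137). Kyat1, a kynurenine aminotransferase, fell by 0.72 in both (0.009 and 0.0113). None of these 3 calls was lost by leaving out a single array. The first enzyme of that pathway, Tdo2, did not fall in either genotype. For histidine, none of the 4 genes passed in either genotype, Hal included (limma, smallest adjusted p = 0.693 in KO and 0.544 in WT liver).

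In the proline, hydroxyproline and ornithine list, Aldh4a1, which encodes the enzyme following Prodh in proline oxidation, fell by 0.65 in KO liver (limma adjusted p = 0.00306). In WT liver Aldh4a1 fell by 0.44 (limma adjusted p = 0.0437). The WT call of Aldh4a1 ended without any 1 of 12 arrays (adjusted p = 0.0529 to 0.122), which were all except fasted WT 3, fed WT 2, fed KO 3 and fed KO 4. It also ended after median centring (0.106), with only the WT arrays in the fit (0.0985) and with the title number as a block (0.0512). Leaving out fasted WT 4 and fed KO 4 together ended it too (0.0702). Prodh and Aldh4a1 were the 2 of 5 genes called in KO liver, and Aldh4a1 was the 1 called in WT liver. In the lysine list of 4 genes Aass was the 1 call, in WT liver.

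Among 12 glycine, serine and threonine genes, Gcat, which works in threonine breakdown, fell by 0.84 in KO and by 0.68 in WT liver (limma adjusted p = 0.00118 and 0.00707). Agxt2 fell by 0.50 in KO liver (0.0135), a call that ended without the 3 arrays whose name ends in 2 (0.108). Gcsh, the H protein partner of Gldc in glycine cleavage, fell by 0.40 in KO liver (0.0386). The call of Gcsh ended without fasted KO 1 (0.0858), 2 (0.0882) or 4 (0.0922) or fed KO 1 (0.0782) or 3 (0.133), on removal of the 3 arrays whose name ends in 2 (0.0832) and after median centring (0.0637). Gldc was the 1 gene of this list called higher, in WT liver. In the phenylalanine and tyrosine list, Qdpr, which regenerates the cofactor tetrahydrobiopterin, fell by 0.45 in KO and by 0.49 in WT liver (limma adjusted p = 0.0154 and 0.0115), and Tat was the other of 6 genes called in WT liver. The KO call of Qdpr ended without fed KO 1 (0.0542) or fed KO 3 (0.0608).

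Of the 5 aminotransferase and glutamate genes, Got1 and Gpt2 were called higher in WT liver. In KO liver Gpt2 was higher and Glud1, the glutamate dehydrogenase that releases ammonia, fell by 0.40 (limma adjusted p = 0.00372). The 19 branched-chain genes had 3 falls in KO liver and 2 in WT liver. Acadsb fell by 0.43 in KO and by 0.30 in WT liver (limma adjusted p = 0.00432 and 0.0488), and Mccc1 by 0.43 in KO and by 0.40 in WT liver (0.0217 and 0.0406). Hibadh fell by 0.24 in KO liver (0.0446). The WT calls of Acadsb and Mccc1 ended without any 1 of 15 and 9 arrays (adjusted p up to 0.151 and 0.112), and also after median centring (0.174 and 0.133). The KO call of Acadsb ended without the 3 arrays whose name ends in 2 (0.0517). In KO liver the call of Mccc1 ended without fasted KO 1 (0.0595), fasted KO 2 (0.0672), fed KO 1 (0.0649) or fed KO 3 (0.0752) or after median centring (0.0588). That of Hibadh ended without any 1 of 10 arrays (up to 0.116) or after median centring (0.128). The Hibadh call also ended with the mean of its 3 probe sets (0.119) and with only the KO arrays in the fit (0.0618). The title number as a block (0.0623) or removal of the 3 arrays whose name ends in 2 (0.0507) ended it too.

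**Figure D5:**
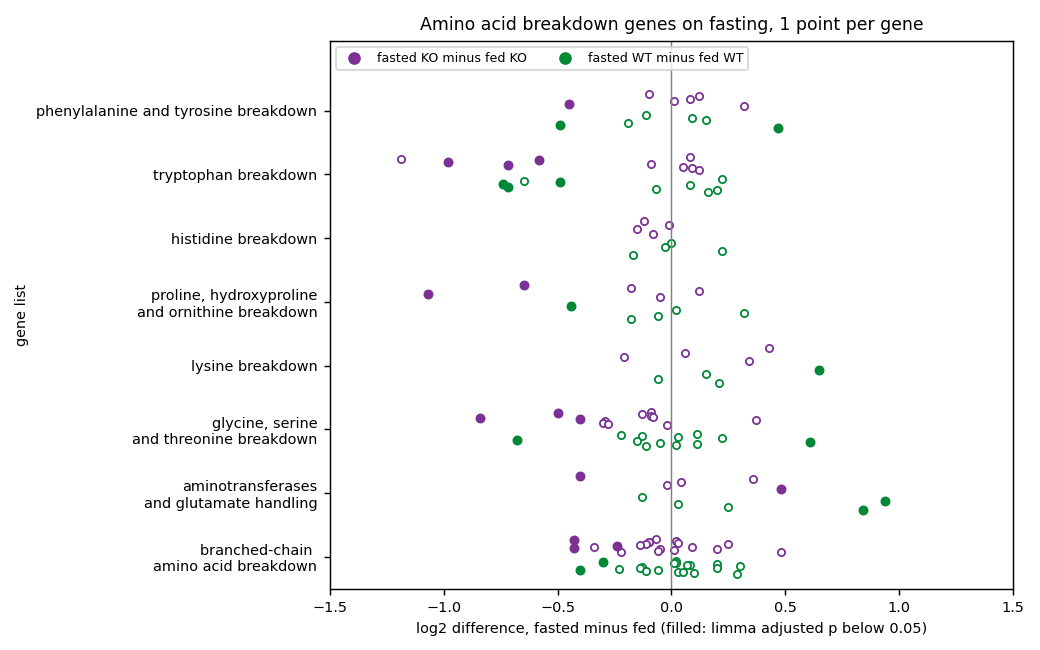
Log2 difference, fasted minus fed (horizontal axis), of each measured gene of 8 amino acid breakdown lists (rows), KO above WT in each row and 1 point per gene. Filled points passed limma at adjusted p below 0.05. In both genotypes 3 of 9 tryptophan genes are filled on the negative side, and the filled points on the positive side are members of the 9 enzymes or Gpt2.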

How the data were processed

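Liver RNA from 16 samples (4 groups of 4) was hybridised to whole-transcript arrays. The authors deposited log2 intensities that RMA had produced, per the submitters' processing notes, with no version, software or genome build named in the sources used here. RMA by default equalises the distributions of the arrays, so differences are relative to the other genes. Values of the 35556 probe sets lay between 1.26 and 14.19, and the medians of the arrays between 5.19 and 5.29. A table pairing probe sets with genes gave 1 symbol to 21218 of them, several to 1881 and none to 12457. Only probe sets with 1 symbol were used (21185 matched RefSeq by Entrez ID), and for 1386 genes with several the brightest on average was kept, which left 18820 genes.

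A mean per group was fitted to all 16 arrays with limma 3.58.1 in R 4.3.3 (12 residual and 4.66 prior degrees of freedom), and two-sided p-values of each comparison were adjusted across the 18820 genes (Benjamini-Hochberg). The fit was tested on simulated data. The members and gene lists were chosen with earlier results of these data known. In the pathway lists the genes named are, per list and fasting comparison, up to 3 called with the largest rise and up to 3 with the largest fall, plus paralogues of members, and for likeness the 3 genes with the highest Pearson r. Some further genes of these lists were not analysed here. No label states that each array is a separate animal, so the p-values reflect the spread among these samples alone, whose number limits the precision. An array is called by its group and the number in its title. What the ending 2 in the names of 3 arrays stands for is not known here. Alternatives covered scaling, a filter on dim genes, probe set choice, variance priors, array weights, blocks, the threshold and arrays left out.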

Additional observations from a re-analysis of the deposited data

Results flagged for a closer look

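Among the 36 sets of 4 arrays (9 enzymes in 4 groups), 2 held an array that stood far from the other 3 of its group. Chance gives such an array in about 1 of 20 sets. Tat lay at 12.29 on fed WT 1, against 12.83 to 12.88 on the other fed WT arrays, a gap of 0.914 of the whole range, above the limit of Dixon's test for 4 values. Without fed WT 1 the fasting difference of Tat in WT liver was 0.33 (limma adjusted p = 0.104), against 0.47 with it. Hal lay at 11.47 on fed KO 4, against 11.81 to 11.86 on the other fed KO arrays, a gap of 0.857 of the range. Fed KO 4 is also the array with the highest acute phase level, 16.16 on the summed log2 scale, and the part of that in the Hal value was not tested.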

How the results depend on the processing

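Of the called members, Prodh in KO fasting kept its call under all 30 alternatives. In WT fasting 4 members passed, and 1 did so with only the WT arrays fitted, after removal of the 3 arrays whose name ends in 2, and without fasted WT 4 and fed KO 4. At adjusted p below 0.01 none did, and with 1 array left out 0 to 4 did. In KO fasting 1 passed, 2 with array weights or only the KO arrays, and 1 to 2 with 1 array left out. Of the 64 pathway genes, 13 in WT fasting became 7 with only the WT arrays, 7 without fasted WT 4 and fed KO 4, 4 at the stricter threshold, and 6 to 13 with 1 array left out (6 without fasted WT 4, 8 without fed WT 1 or fed WT 3). In KO fasting 14 became 8 at the stricter threshold and 10 to 16 with 1 array left out. Over all genes the 1432 WT calls became 880 without fasted WT 4, 829 with only the WT arrays and 576 at the stricter threshold, and the 1772 KO calls became 964 without the 3 arrays whose name ends in 2 and 879 at the stricter threshold.

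With the title number as a replicate block, 4 members passed in WT and 1 in KO fasting, and 11 and 14 pathway genes. Same-numbered arrays did not deviate together (r of -0.22 to 0.21 over 24 pairs, 4 above 0.1), so the numbers were not taken as a pairing.

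Differences changed sign for uncalled values alone. Most were near 0, but -0.15 for Hal in KO fasting and 0.10 for Tat in fed KO against WT were among them. The cause was not tested. Median centring gave 0.0122 for Prodh in WT and 0.00114 for Gpt in KO fasting. Cyclic loess gave 0.00818 for Tdo2 in fasted KO against WT and -0.0128 for Got2 in WT fasting, where quantile normalisation gave -0.0268. In fed KO against WT, quantile normalisation gave -0.000356 for Aass and -0.00383 for Gldc, and array weights 0.0155 for Gpt and 0.0439 for Hal. Without the 3 arrays whose name ends in 2, fed KO against WT gave -0.00878 for Tdo2, 0.0174 for Gpt, 0.0408 for Hal and -0.0555 for Aass, and averaged fasting -0.0365 for Hal. Without fasted WT 4 and fed KO 4, fasted KO against WT gave 0.0166 for Tat and 0.0328 for Tdo2, fed KO against WT 0.056 for Gpt, 0.0454 for Hal and -0.0286 for Aass, the difference of responses 0.00514 for Tdo2, and averaged fasting -0.00882 for Hal.

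With 1 array left out the ranges were as follows. In WT fasting Prodh ran from -0.242 to 0.106 and Got2 from -0.0119 to 0.0541. In KO fasting Gpt ran from -0.107 to 0.075, Hal from -0.336 to 0.0338 and Prodh2 from -0.194 to 0.0168. In fasted KO against WT, Tat ran from -0.0965 to 0.0166 and Tdo2 from -0.0741 to 0.0328. In fed KO against WT, Tat ran from -0.0422 to 0.194, Tdo2 from -0.0121 to 0.0662, Gpt from -0.12 to 0.056, Hal from -0.138 to 0.0754, Aass from -0.0286 to 0.0708 and Gldc from -0.103 to 0.175. The difference of responses of Tdo2 ran from -0.0984 to 0.0085 and the averaged fasting difference of Hal from -0.0578 to 0.127.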

Other observations

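Carriers and regulators around these enzymes were also measured. Slc25a22, a mitochondrial glutamate carrier, lay at 10.78 ± 0.14 in fasted KO and 9.91 ± 0.20 in fed KO liver, and at 10.82 ± 0.28 in fasted WT and 9.87 ± 0.12 in fed WT liver (SD, n = 4 each). It rose by 0.87 in KO and by 0.96 in WT liver (limma adjusted p = 0.000349 and 0.000361), and neither call was lost by leaving out a single array. Of 11 carriers 1 rose and 1 fell in KO liver, and 2 rose and 1 fell in WT liver. The shares of all genes were 4.53% higher and 4.89% lower in KO, and 3.34% and 4.27% in WT liver. Slc25a15, the mitochondrial ornithine carrier, rose by 0.52 in WT liver (limma adjusted p = 0.013), a call that ended with only the WT arrays in the fit (0.0603) and without fasted WT 4 and fed KO 4 together (0.0504). Slc25a44, a carrier of branched-chain amino acids, fell by 0.69 in KO liver (0.00698). Slc38a3, a glutamine transporter of the plasma membrane, fell by 0.29 in WT liver (0.0247), a call that ended without fasted WT 2 or 4 or fed WT 2 or 4 (adjusted p = 0.0638 to 0.083), with only the WT arrays in the fit (0.0938) and after median centring (0.0895).

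Of 14 genes of hormonal and transcriptional control, 1 rose and 2 fell in KO liver, and 9 rose and 2 fell in WT liver, against the background shares of 4.53% and 4.89% in KO and 3.34% and 4.27% in WT liver. Cebpa, a hepatocyte transcription factor gene, fell by 0.69 in KO and by 0.64 in WT liver (limma adjusted p = 0.000214 and 0.000692). Nr3c1, which encodes the glucocorticoid receptor, fell by 0.37 in KO and by 0.41 in WT liver (0.00628 and 0.00477). Foxo1 rose by 0.40 in KO liver (0.0315), a call that ended without fasted KO 1, 2 or 4 or fed KO 3 or 4 (0.0611 to 0.102) and with only the KO arrays in the fit (0.0713) or on removal of the 3 arrays whose name ends in 2 (0.191). The coactivator gene Ppargc1a rose by 1.48 in WT liver (0.00283) and differed by 0.84 in KO liver without passing (0.0594). Per1, a clock gene and glucocorticoid target, rose by 1.05 in WT liver (0.0195), and Fkbp5, another glucocorticoid target, by 1.37 (0.0359). The call of Per1 ended without fasted WT 4 or fed WT 1 or 4 (0.0579 to 0.0723), and that of Fkbp5 without fasted WT 2 or 4 or fed WT 1, 2 or 4 (0.081 to 0.115). Both also ended with only the WT arrays in the fit (0.0656 for Per1 and 0.114 for Fkbp5). Removal of the 3 arrays whose name ends in 2 ended them too (0.0553 and 0.108). So did leaving out fasted WT 4 and fed KO 4 together (0.0805 and 0.12). With a robust variance prior the Fkbp5 call ended as well (0.0705). Neither gene was called in KO liver. The fasting responses of these genes were not shown to differ between the genotypes.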
